A study of Arabidopsis thaliana with 18 samples.

Results

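Seedlings of the Arabidopsis thaliana spx1 spx2 double mutant that had grown without inorganic phosphate (Pi) and then been given Pi for 4 h were compared with spx1 spx2 seedlings that had never been starved. The comparison was chosen by sample title and holds 6 of the 18 arrays of the series, 3 per group, and all 22746 probe sets that are not array controls. The resupplied mutants had been raised on Pi-lacking solid Johnson medium and then moved to the complete version of it. The never-starved mutants were raised on complete medium. Both groups were whole seedlings labelled 7 days old and both carry the spx1 and spx2 mutations in the Col-0 background. The other groups used here are spx1 spx2 without Pi, and wild-type Col-0 (WT) resupplied, without Pi and in complete medium, again 3 arrays each. The labels name no alleles, and the sources used here do not say whether never-starved seedlings were moved to a fresh plate as well, so resupply and the transfer itself cannot be told apart.

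Plants short of Pi switch on a large set of genes for Pi uptake, scavenging and recycling through the transcription factor PHR1. SPX1 and SPX2 are nuclear SPX-domain proteins that bind PHR1 when Pi is ample and hold it back from its target genes. The comparison asks what starvation has left behind 4 h after Pi returns, or what has gone past the replete level, in seedlings without this brake. The SPX1 and SPX2 transcripts have no probe set named here, so their loss was not checked. Genes of Pi uptake, Pi signalling and heat shock, and root tissue markers other than root hair genes, were not analysed here for the same reason.

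All levels below are RMA signals on the log2 scale, on which a difference of 1 is a 2-fold change. The values of the 3 arrays of a group are given in replicate order. Changes are resupplied minus complete within spx1 spx2 unless said otherwise, with the standard error (SE) of the limma fit and a p-value adjusted over all probe sets. A change passed at an adjusted p under 0.05. The labels call the arrays biological replicates and do not say whether they came from separate cultures, so the p-values measure the spread between these samples.

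The arrays differed in ways other than the groups. Replicate 2 of spx1 spx2 in complete medium, replicate 3 of WT in complete medium and replicate 1 of spx1 spx2 without Pi had spiked-in dap control signals of 4.87, 4.93 and 4.73, against 7.62 to 9.12 on the other arrays. The 25S ribosomal RNA control read 10.08, 10.32 and 10.40 in resupplied spx1 spx2, and 11.60, 9.80 and 11.51 in complete spx1 spx2. The 3 prime minus 5 prime signal of the ubiquitin control was 1.22, 1.15 and 1.16 in the resupplied arrays, against 1.26, 1.35 and 1.31 in the complete ones. The complete replicates of the mutant also spread widely in low-oxygen, cold and jasmonate-related genes, as the values below show. Of 22 markers listed for root hairs, other root tissue and green tissue, only the root hair expansins EXPA7 and EXPA18 have a probe set named here, and both were well detected.

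The 2 groups differed at a large share of the array. After 4 h of Pi, 9533 probe sets (41.9%) still differed from never-starved mutants, 4659 higher (20.5%) and 4874 lower (21.4%). At least 2-fold changes that also passed made up 2346 probe sets (10.3%), of which 1060 were higher (4.66%) and 1286 lower (5.65%). The 3 arrays of each group did not overlap at 49.3% of probe sets. Counting 1 probe set for each of 13355 named genes, 39.7% passed, 19.1% higher and 20.6% lower, and these shares are the background for the gene groups below. The median change over all probe sets was 0.003.

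**Figure D1:**
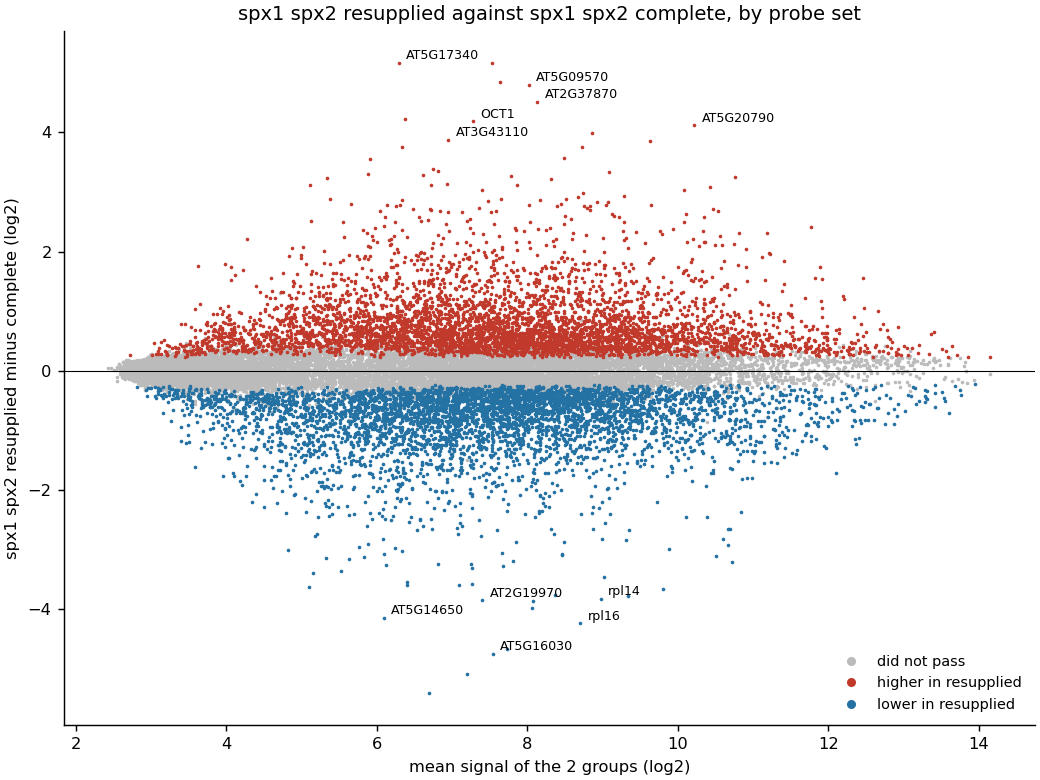
Change between resupplied and complete spx1 spx2 (vertical axis, log2) against the mean signal of both groups (horizontal axis, log2). Each point is a probe set, red where it passed as higher in resupplied arrays, blue where it passed as lower and grey where it did not pass. The labelled genes are those with the largest named rises and falls, from 5.17 for AT5G17340 to -4.75 for AT5G16030.

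The largest named rises were genes of the Pi starvation response. AT5G17340, a gene known to respond to low Pi, read 8.52, 9.19 and 8.93 in resupplied mutants, against 3.53, 3.90 and 3.69 in never-starved mutants. The groups lay far apart, and mutants kept without Pi read higher still, at 11.24, 11.08 and 11.23. The change was 5.17 ± 0.22 (adjusted p = 5.64e-12), or 36-fold. It is a lower bound, because the complete group lay under 4.397, the lowest lower quartile of any array, where RMA compresses differences.

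OCT1, an organic cation transporter, gave the same picture at a higher base. It read 9.45, 9.51 and 9.15 in resupplied mutants, against 4.94, 5.37 and 5.24 in complete medium. Its 3 arrays without Pi read 11.72, 11.88 and 12.08, so the resupplied arrays stood between the starved and the replete ones and overlapped neither. The change was 4.19 ± 0.15 (adjusted p = 7.07e-13), or 18.2-fold.

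AT5G09570 had hardly left its starved level. It read 10.32, 10.55 and 10.40 in resupplied mutants, 10.77, 10.77 and 10.56 in mutants without Pi and 5.82, 5.44 and 5.60 in complete medium. The change against complete medium was 4.80 ± 0.16 (adjusted p = 3.63e-13), or 27.9-fold. AT5G20790 behaved alike from a far higher replete level. Its resupplied arrays read 12.22, 12.33 and 12.30, its arrays without Pi 12.52, 12.60 and 12.83, and its complete arrays 8.29, 7.91 and 8.29. In never-starved WT seedlings the same gene read only 4.93, 5.49 and 5.04. The mutant change was 4.12 ± 0.16, against 3.64 in WT, and this difference between genotypes did not pass (0.49, adjusted p = 0.12).

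SAL2, of the SAL family of bisphosphate nucleotidases, and AT2G04460 rose less. SAL2 read 7.49, 7.61 and 7.58 in resupplied mutants, against 6.29, 6.54 and 6.23 in complete medium, a change of 1.21 ± 0.12 (adjusted p = 1.3e-07). AT2G04460 read 8.91, 8.98 and 8.96, against 7.99, 7.94 and 8.22, a change of 0.90 ± 0.14 (adjusted p = 2.77e-05). In both genes the groups did not overlap. For AT2G04460 the WT change was -0.12, and the genotypes differed by 1.02 (adjusted p = 0.000721). LPR1 and LPR2 encode multicopper oxidases of the root response to low Pi. LPR1 changed by 0.39 ± 0.15 (adjusted p = 0.0428) and LPR2 by -0.29 ± 0.18 (adjusted p = 0.211). Of the 8 measured low-Pi marker genes 7 were higher and none lower, with a median change of 2.66. Without replicate 2 of the complete mutants 6 were higher.

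**Figure D2:**
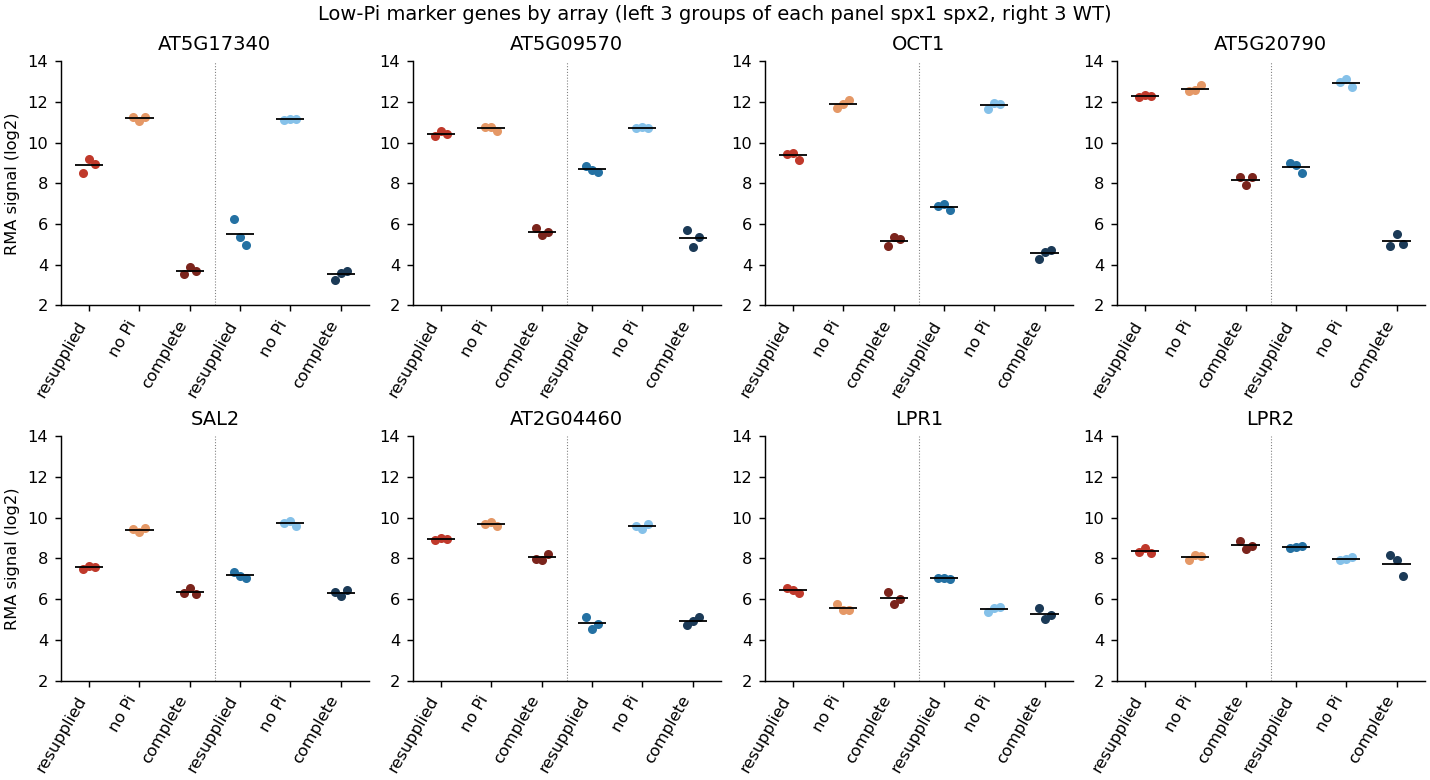
RMA signal (log2, vertical axis) of the 8 low-Pi marker genes on each of the 18 arrays. Points are arrays and bars the mean of 3; in each panel the first 3 groups are spx1 spx2 resupplied, without Pi and complete, and the last 3 are WT in the same media. Resupplied mutants sit well above complete mutants for AT5G17340, AT5G09570, OCT1 and AT5G20790, and close to them for LPR1 and LPR2.

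Further members of the starvation response were among the rises. AT2G37870, which encodes a lipid transfer protein-like product, read 10.63, 10.35 and 10.20 in resupplied mutants, against 5.47, 6.23 and 5.92 in complete medium. The change was 4.52 ± 0.19 (adjusted p = 4.88e-12), or 23-fold. Its arrays without Pi, at 10.23, 9.78 and 9.90, overlapped the resupplied ones. AT3G43110 changed by 3.88 ± 0.20, AT4G33550 by 3.57 ± 0.13, AT3G19430 by 3.12 ± 0.20 and AT1G08310 by 3.03 ± 0.15. AT1G49960, of the nucleobase-ascorbate transporter family, changed by 3.12 ± 0.12. AT2G42060 rose by 3.27 ± 0.23 and stood 1.67 above its level without Pi. AT4G27654 changed by 3.24 ± 0.19, again a lower bound, from arrays of 6.96, 7.34 and 6.59 in resupplied mutants and 3.53, 3.74 and 3.90 in complete medium. Without Pi AT4G27654 read 10.94, 11.19 and 10.74, far above its resupplied arrays. Its WT change was larger, at 5.50, also a lower bound, and the genotype difference passed (adjusted p = 6.86e-06). All genes named in this paragraph passed against complete medium, with adjusted p-values of 3.29e-09 or lower. None of their resupplied and complete groups overlapped. Probe sets with no single gene named here reached 5.17, 4.84 and 4.23 among rises.

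PAP20, a purple acid phosphatase and the single measured member of its list, was higher by 1.32 ± 0.14 (adjusted p = 2.97e-07), a lower bound since its complete arrays were dim. Its resupplied arrays read 5.39, 5.2 and 5.57, against 4.11, 3.83 and 4.26 in complete medium, and 5.46, 5.74 and 5.44 without Pi. The HHO factors are MYB-type repressors that link nitrate and Pi responses. AT3G25790 (HHO1) was higher by 1.21 ± 0.19 and AT1G68670 (HHO2) by 0.61 ± 0.10. The third list member did not pass.

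The WT starvation response was measured on other arrays and so could be followed into this comparison. Growth without Pi changed 11037 probe sets in WT (48.5%), 20.4% upward and 28.1% downward. Of these, 2015 (8.86%) were induced and 1421 (6.25%) repressed at least 2-fold. Of the induced set, 1350 (67%) were higher in resupplied than in complete mutants, where the background was 20.5%. They made up 29% of all probe sets higher in this comparison. A further 94 (4.67%) were lower and 571 (28.3%) did not pass, and the median change of the set was 0.70 in the mutant and 1.26 in WT. Of the repressed set, 1128 (79.4%) were lower, against a background of 21.4%, and they made up 23.1% of all lower probe sets. Another 46 (3.24%) were higher and 247 (17.4%) did not pass. The median change of the repressed set was -0.88 in the mutant and -1.17 in WT. The WT medians of both sets use the complete WT arrays by which the sets were chosen, and the mutant medians do not. The choice pushes the WT medians outward, so the genotypes cannot be compared by them.

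Read from the other side, 677 (63.9%) of the 1060 probe sets that were at least 2-fold higher were also induced at least 2-fold by starvation in WT. The WT starvation comparison called 148 of them (14%) in neither direction. Among the 1286 that were at least 2-fold lower, 611 (47.5%) were repressed at least 2-fold in starved WT and 251 (19.5%) were not called there. The same resupplied against complete contrast in WT called 963 (90.8%) of the higher and 986 (76.7%) of the lower set in the same direction, where that contrast called 23.8% of all probe sets higher and 30.4% lower. It called 15 and 58 of them in the opposite direction.

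Some genes induced by starvation in WT lay below the replete level in resupplied mutants. EXLA1, an expansin-like gene, read 8.70, 8.65 and 8.74 in resupplied mutants, against 9.73, 9.90 and 10.18 in complete medium and 11.59, 11.52 and 11.41 without Pi. It fell by 1.24 on the log2 scale (SE 0.16, adjusted p = 5.77e-06). AT3G17800 gave 9.31, 9.50 and 9.38, against 10.37, 10.38 and 10.44, and fell by 1.0 (SE 0.13). In both genes the resupplied arrays were the lowest of the 3 mutant groups. AT5G52760, a gene of the heavy-metal-associated domain family, AT5G47070, which encodes a receptor-like cytoplasmic kinase, AT5G02940 and AT2G42760 fell by 1.30, 1.12, 1.09 and 1.08. For AT5G52760 and AT5G02940 the mutant change without Pi did not pass (0.40 and -0.28, adjusted p = 0.0902 and 0.299). Their means were 7.12 and 8.69 in complete mutants, above the 4.93 and 7.33 of complete WT, and 5.82 and 7.60 in resupplied mutants.

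Some genes repressed by starvation in WT lay above the replete level. AT5G37990, a gene of the methyltransferase family, read 9.95, 9.33 and 9.32 in resupplied mutants, against 9.09, 8.58 and 8.34 in complete medium. Without Pi it read 4.90, 4.38 and 4.66, so its level was 4.89 higher after 4 h of Pi than without it. The change against complete medium was 0.86 ± 0.21 (adjusted p = 0.00257). ZIP9, a metal transporter of the ZIP family, read 5.95, 5.96 and 6.20, against 4.87, 4.96 and 4.97, and rose by 1.1 ± 0.15 (adjusted p = 1.1e-05). AT5G43180 rose by 1.08 ± 0.12 and CIL by 0.73 ± 0.20. In ZIP9 and AT5G43180 the WT changes were -0.85 and -0.25. Mutants without Pi differed from complete mutants by -0.23 and -0.14 in these genes, neither past the threshold (adjusted p = 0.251 and 0.367). Complete mutants had means of 4.93 and 7.39, below the 5.77 and 8.29 of complete WT, and resupplied mutants had 6.04 and 8.47.

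The root hair expansins and several wall genes stood above both other mutant groups. Root hairs are the tubular root cells that extend the absorbing surface, and their tips grow by loosening and rebuilding the wall. EXPA7 and EXPA18 are expansins of the root hair. EXPA18 read 9.84, 9.99 and 9.92 in resupplied mutants, against 7.89, 7.76 and 7.28 in complete medium and 8.22, 8.04 and 7.56 without Pi. EXPA7 read 9.31, 9.54 and 9.63, against 7.56, 7.43 and 6.84 in complete medium and 7.79, 7.74 and 7.22 without Pi. Every resupplied array was above every other mutant array in both genes. The changes against complete medium were 2.28 ± 0.22 (adjusted p = 1.24e-07) and 2.22 ± 0.20 (adjusted p = 7.49e-08). The corresponding WT changes were 1.68 and 1.47, and the genotype differences did not pass (adjusted p = 0.153 for EXPA18 and 0.0577 for EXPA7). In whole seedlings, more cells of a type and more RNA per cell cannot be told apart.

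Extensins are hydroxyproline-rich wall proteins, and several are expressed chiefly in root hairs. The 11 measured genes of a list of extensins and root hair-expressed genes were all higher, with a median change of 2.55, against 1.64 in WT. The list was written after the largest rises had been seen and 7 of its 11 members were among them, so its count is a description only. The median signal over the list was 8.77, 8.75 and 8.92 on the resupplied arrays, against 6.35, 6.34 and 6.17 on the complete arrays. It was 7.76, 8.0 and 7.47 without Pi.

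Among the extensins, AT5G06630 read 9.34, 9.35 and 9.56 in resupplied mutants, against 6.80, 6.90 and 6.17 in complete medium, and rose by 2.79 ± 0.21 (adjusted p = 8.47e-09). Some of the probes of its probe set also match related genes, so the signal may be shared. AT3G49960, a class III peroxidase, read 10.10, 10.26 and 10.12, against 7.76, 7.45 and 7.05, and rose by 2.74 ± 0.18 (adjusted p = 1.06e-09). Both genes stood 1.67 and 1.43 above their means without Pi. AT1G26250 read 10.52, 10.29 and 10.68 in resupplied mutants, against 7.66, 7.93 and 7.39 in complete medium, and rose by 2.83 ± 0.16. AT1G26240 rose by 2.80 ± 0.32, a lower bound since its complete arrays were dim. For AT5G06630 and AT3G49960 the mutant change exceeded the WT change by 1.16 and 0.99 (adjusted p = 0.00847 and 0.00715), and for AT1G26250 it was smaller by -0.68 (adjusted p = 0.0304).

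Other wall genes moved in both directions. Of 18 measured expansins 9 were higher and 5 lower, with a median of 0.29. EXLB1, an expansin-like gene, rose by 2.94 ± 0.15 (adjusted p = 3.89e-11), with 10.51, 11.03 and 10.72 in resupplied mutants and 7.50, 8.02 and 7.91 in complete medium. EXPA8 fell by 1.40 (SE 0.20, adjusted p = 1.1e-05). Xyloglucan endotransglucosylases cut and rejoin wall xyloglucan, and 5 of 9 were higher and 1 lower. XTH26 rose by 1.54 ± 0.18 in the mutant, against a WT change of -0.22, and the difference between genotypes passed (1.76, adjusted p = 4.73e-05).

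**Figure D3:**
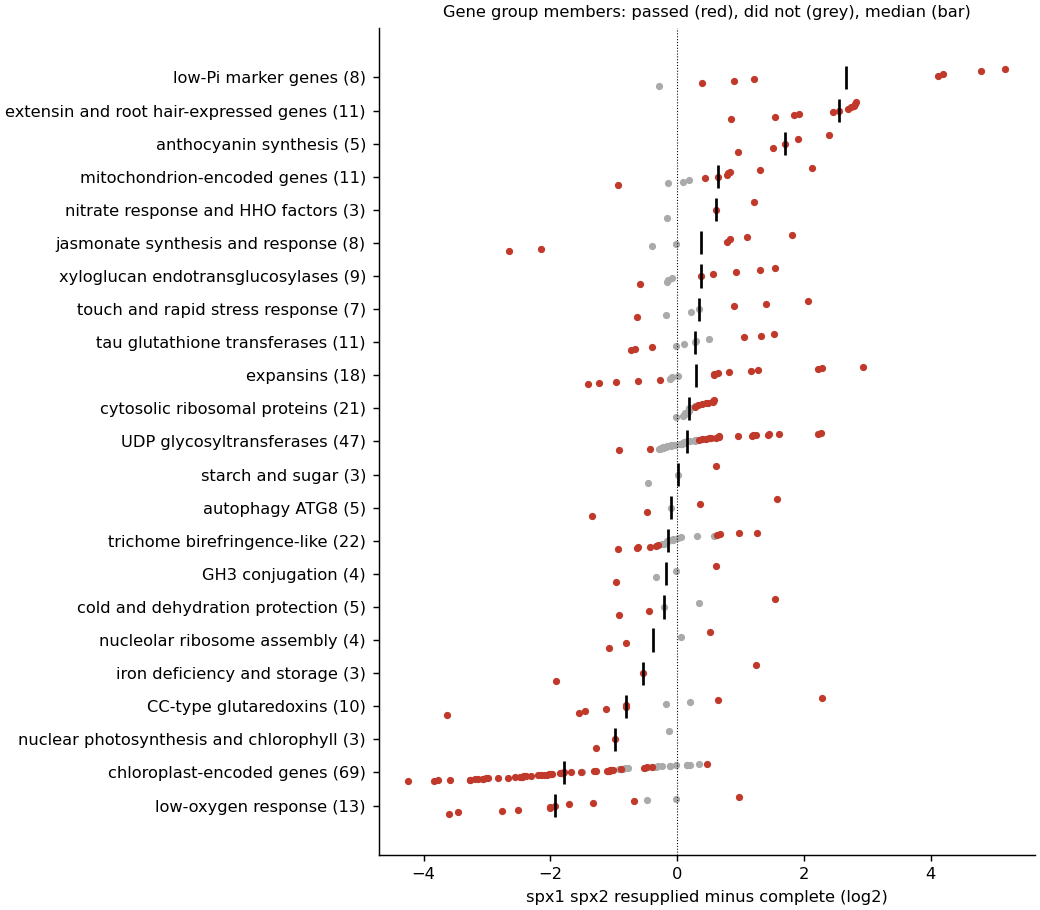
Change between resupplied and complete spx1 spx2 (horizontal axis, log2) of the members of each gene group with at least 3 measured genes, whose number is in parentheses. Each point is a gene, red where it passed and grey where it did not, and the black bar is the group's median, which runs from 2.66 for low-Pi markers to -1.93 for low-oxygen genes.

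The anthocyanin pathway was another group above both complete and Pi-free mutants. Anthocyanins are the purple pigments that seedlings often build up under stress. All 5 measured genes were higher, with a median of 1.71. UF3GT, an anthocyanin glycosyltransferase, read 9.39, 9.57 and 9.54 in resupplied mutants, against 7.20, 7.19 and 6.92 in complete medium and 6.74, 6.70 and 6.69 without Pi. It rose by 2.39 ± 0.18 (adjusted p = 4.88e-09), or 5.25-fold, and its resupplied arrays stood above all other mutant arrays. AT4G14090, another anthocyanin glucosyltransferase, rose by 1.90 ± 0.19, and AT5MAT, a malonyltransferase, by 1.71 ± 0.20. DFR, which makes the leucoanthocyanidin precursors, read 9.91, 10.05 and 10.01, against 8.37, 8.50 and 8.53 in complete medium, and rose by 1.52 ± 0.18. The WT changes of these 4 genes were larger, at 4.55, 4.42, 3.49 and 2.59, and every difference between genotypes passed.

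UDP glycosyltransferases, the wider family that attaches sugars to small molecules, had 18 of 47 members higher, 2 lower and 27 that did not pass, with a median of 0.16. UGT76E12 read 7.19, 7.64 and 6.40 in resupplied mutants, against 5.09, 4.76 and 4.55 in complete medium and 4.70, 4.87 and 4.51 without Pi. It rose by 2.27 ± 0.26 (adjusted p = 1.25e-06). UGT71C1 rose by 2.23 ± 0.21 and read much the same without Pi. UGT73C1 rose by 1.60 ± 0.23 and UGT73B4 by 1.45 ± 0.22.

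The falls included genes that starvation had lowered and genes that fell further after resupply. AT5G16030 had the largest named fall. It read 5.65, 4.44 and 5.41 in resupplied mutants, against 9.45, 9.97 and 10.34 in complete medium and 7.03, 6.42 and 7.43 without Pi. It fell by 4.75 on the log2 scale (SE 0.29, adjusted p = 5.31e-10), which is 27-fold, and the WT change was -4.74. AT5G14650, a polygalacturonase-like gene, fell by 4.14 (SE 0.14), to 4.16, 3.77 and 4.16 in resupplied mutants, against 8.06, 8.37 and 8.07 in complete medium. Its resupplied arrays were dim, so the fall is a lower bound. AT2G19970, of the CAP protein family, fell by 3.85 (SE 0.17), and AT2G32160, which encodes a methyltransferase-like protein, by 3.39 (SE 0.23), also a lower bound. None of these 4 genes differed between genotypes past the threshold. Probe sets with no single gene named here changed by as much as -5.41, -5.09 and -4.66.

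AT1G73600 makes a phosphoethanolamine methyltransferase, an enzyme on the route to phosphatidylcholine, and was the single measured gene of membrane lipid remodelling. It read 6.41, 6.05 and 7.00 in resupplied mutants, against 10.60, 9.99 and 10.16 in complete medium and 4.75, 4.99 and 5.09 without Pi. The resupplied arrays stood above the starved ones and well below the replete ones. The gene fell by 3.76 (SE 0.21, adjusted p = 1.5e-10), or 13.6-fold. In WT the resupplied arrays read 8.06, 7.99 and 8.37, against 9.79, 9.68 and 9.18 in complete medium. The WT change was -1.41, and the genotypes differed by -2.35 (adjusted p = 1.52e-05).

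CC-type glutaredoxins are small redox proteins of land plants, several of which respond to nitrate. Of 10 measured, 6 were lower and 2 higher, with a median of -0.81. AT3G62950 read 3.52, 3.09 and 3.26 in resupplied mutants, against 6.16, 7.01 and 7.58 in complete medium, and fell by 3.63 (SE 0.24, adjusted p = 1.26e-09), a lower bound. Its arrays without Pi were as dim, at 3.22, 3.08 and 3.06. AT4G15690 fell by 1.54 (SE 0.16) and AT4G15700 by 1.45 (SE 0.15). AT5G11930 went the other way, with 8.36, 8.66 and 8.67 in resupplied mutants, against 6.42, 6.03 and 6.36 in complete medium, and rose by 2.29 ± 0.15.

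Genes that respond to low oxygen were mostly lower. Of 13 measured, 10 were lower, 1 was higher and 2 did not pass, with a median of -1.93. The median signal over the list was 5.39, 5.78 and 5.73 on resupplied arrays, against 6.87, 7.11 and 7.76 on complete arrays and 7.04, 7.02 and 7.00 without Pi. AT4G27450 read 7.05, 6.99 and 7.80, against 9.35, 11.27 and 11.62 in complete medium, and fell by 3.46 (SE 0.37, adjusted p = 4.69e-07). AT1G19530 read 4.10, 4.27 and 5.44, against 6.93, 8.43 and 9.24, and fell by 3.60 (SE 0.41). In both genes replicate 1 of the complete mutants was the lowest of its group by over 1 unit, yet above all resupplied arrays. AT1G33055 fell by 2.77 (SE 0.18) and AT4G39675 by 2.51 (SE 0.53), the second with groups that overlapped. AT5G66985 was the exception, with 9.55, 9.48 and 9.51 in resupplied mutants, against 8.49, 8.67 and 8.47 in complete medium, and rose by 0.97 ± 0.16.

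Plastid-encoded genes were lower as a group. The chloroplast genome encodes parts of the photosystems, of the NDH complex and of the plastid ribosome. Of 69 measured genes 50 were lower, 1 was higher and 18 did not pass, with a median of -1.78, against -1.51 in WT. The median signal over the list was 8.0, 8.01 and 7.71 on resupplied arrays, against 10.11, 9.12 and 10.23 on complete arrays. Without Pi it was 8.36, 9.59 and 9.60, so the resupplied arrays were the lowest of the mutant groups. The low values of replicate 2 in complete medium and replicate 1 without Pi fell on arrays with low spike-in signal, and their 25S ribosomal RNA signals, 9.80 and 8.53, were also the lowest of their groups. The part of these control signals in the result was not tested. Without replicate 2 of the complete mutants 56 plastid genes were lower and none higher.

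The genes of the plastid ribosomal proteins rpl16, rpl14 and rpl22 fell most. For rpl16 the resupplied arrays read 7.02, 6.27 and 6.47, against 11.31, 9.64 and 11.52 in complete medium and 7.70, 9.78 and 10.02 without Pi. It fell by 4.24 (SE 0.60, adjusted p = 1.18e-05), or 18.9-fold. The falls of rpl14 and rpl22 were 3.83 (SE 0.48) and 3.78 (SE 0.46), and their WT changes were -1.82 and -1.67. The genotype difference passed for both (adjusted p = 0.0351 and 0.0215). ndhG, of the NDH complex, fell by 3.59 (SE 0.39) in the mutant, against a WT change of -4.06. Some photosystem II transcripts were not called lower: psbJ changed by 0.35 and psbE by 0.21, neither past the threshold, and psbL rose by 0.47 ± 0.17 (adjusted p = 0.0316). Of nuclear genes for photosynthesis, LPA19 fell by 1.28 (SE 0.11) and PAM68 by 0.98 (SE 0.15), and the third of the 3 measured did not pass. LPA19 and PAM68 are assembly factors of photosystem II.

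Mitochondrion-encoded genes moved less and mostly upward, with 7 of 11 higher, 1 lower and a median of 0.65. cox2, a subunit of cytochrome c oxidase, read 7.60, 8.26 and 7.90 in resupplied mutants, against 5.82, 5.75 and 5.80 in complete medium and 6.50, 6.58 and 6.52 without Pi. It rose by 2.13 ± 0.16 (adjusted p = 5.87e-09), and every resupplied array lay above every other mutant array. nad4L rose by 1.31 ± 0.17 and cox1 by 0.83 ± 0.20. The nuclear genome also holds copies of mitochondrial sequence, so the origin of these signals is uncertain. Without replicate 2 of the complete mutants 6 were higher and 1 lower.

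The cytosolic ribosomal protein genes that passed were all higher. Of 21 measured 8 were higher, none lower and 13 not called, with a median of 0.19. Over all named genes 39.7% passed, 19.1% higher and 20.6% lower. Without replicate 2 of the resupplied mutants 5 were higher. AT1G07070 read 9.76, 9.92 and 9.82 in resupplied mutants, against 9.41, 9.20 and 9.20 in complete medium and 8.65, 8.26 and 8.35 without Pi. It rose by 0.56 ± 0.10 (adjusted p = 0.000227). AT2G37600 rose by 0.58 ± 0.13 and AT3G16080 by 0.49 ± 0.10. Of the nucleolar machinery that builds ribosomes 4 of 9 listed genes were measured, of which 1 was higher, 2 were lower and 1 was not called. The median signal of these 4 was 8.41, 7.99 and 7.85 on resupplied arrays, against 8.0, 7.79 and 7.64 on complete arrays, while the median change was -0.37. AT3G05060 and AT3G12860, both NOP-type components of small nucleolar RNA particles, fell by 1.07 (SE 0.24) and 0.81 (SE 0.21), and NRPA2, a subunit of RNA polymerase I, rose by 0.52 ± 0.13. All 4 measured nucleolar genes had a lower change in the mutant than in WT past the threshold, as had 13.4% of all probe sets.

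**Figure D4:**
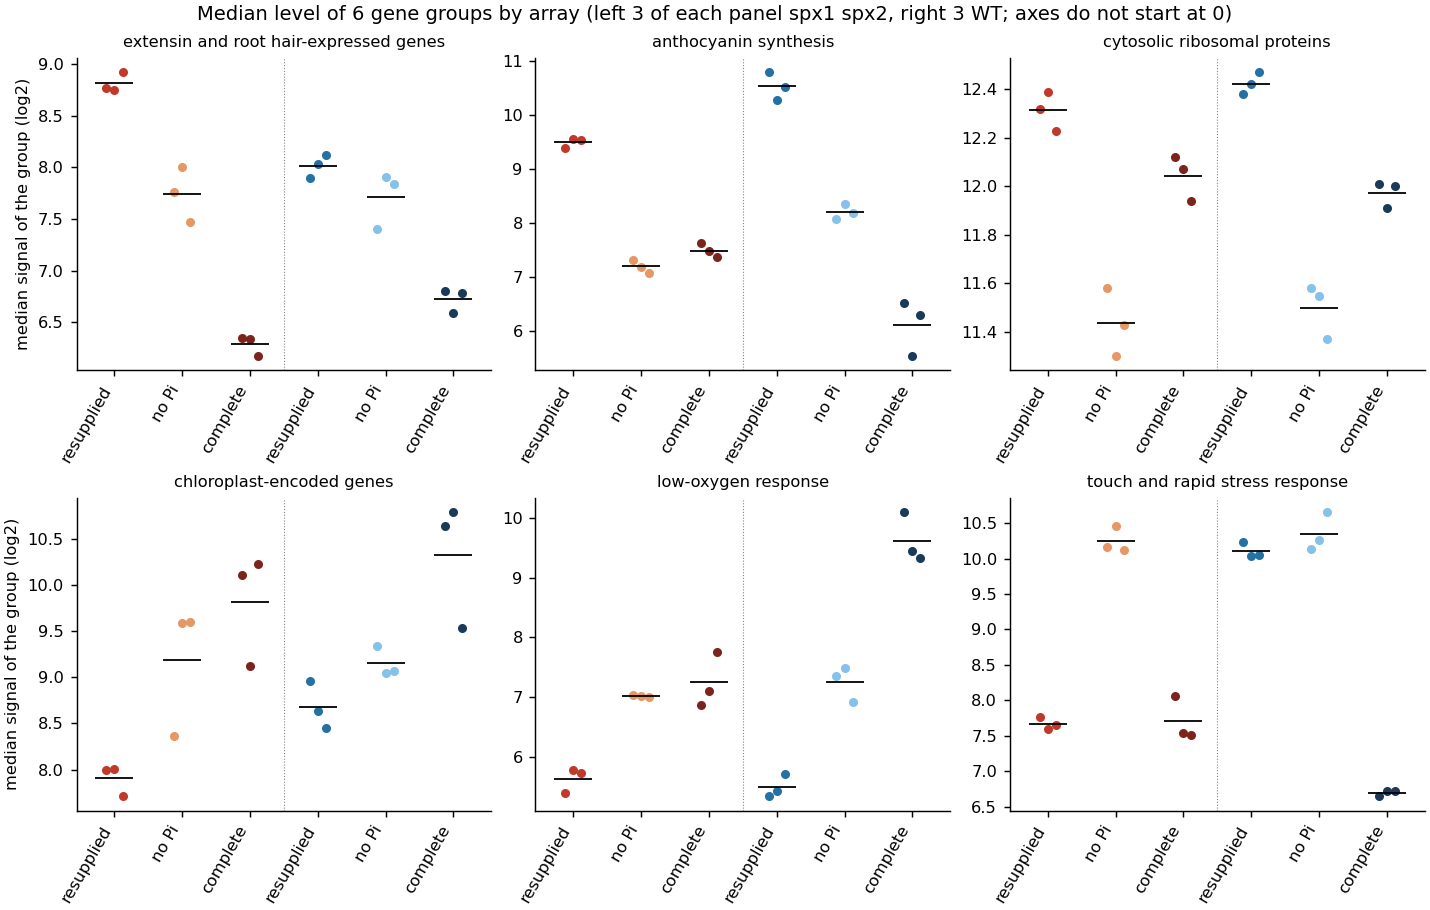
Median signal (log2, vertical axis) over the measured members of 6 gene groups on each of the 18 arrays; points are arrays and bars the mean of 3. In each panel the first 3 groups are spx1 spx2 resupplied, without Pi and complete, and the last 3 WT in the same media. Resupplied mutants are the highest mutant group for extensins and anthocyanin genes and the lowest for plastid and low-oxygen genes.

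The same contrast was then set against WT. In WT, 12324 probe sets (54.2%) differed between resupplied and complete seedlings, 5406 higher (23.8%) and 6918 lower (30.4%), and the median over all probe sets was -0.119. At least 2-fold changes that passed in WT were 8.91% of probe sets upward and 6.53% downward. The change differed between genotypes at 6302 probe sets (27.7%). The mutant change was above the WT change at 3246 of them (14.3%) and below it at 3056 (13.4%). Among differences of at least 2-fold these counts were 586 (2.58%) and 1319 (5.8%). With each array centred on its median, 6940 differed and 63.4% of them had the mutant change above, against 51.5% without centring. Over all probe sets the 2 changes had a Pearson correlation of 0.66, a description across probe sets that share arrays.

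**Figure D5:**
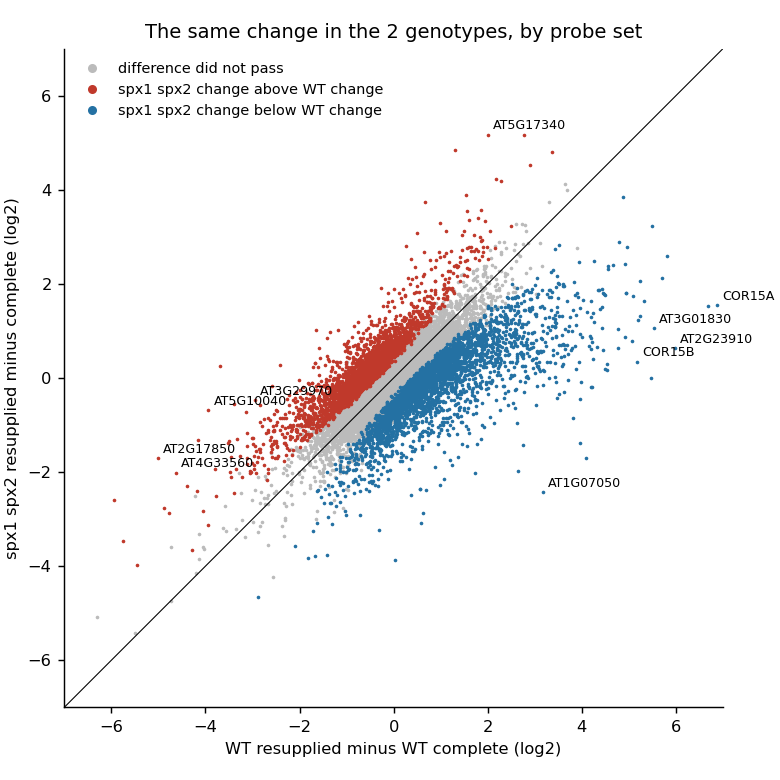
Change between resupplied and complete seedlings in spx1 spx2 (vertical axis, log2) against the same change in WT (horizontal axis, log2), 1 point per probe set. Red and blue points had a mutant change above or below the WT change past the threshold, grey points did not, and the line marks equal changes. COR15A, with 1.55 in spx1 spx2 and 6.87 in WT, lies far below the line.

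The 8 named genes with the largest negative differences all had a higher level in never-starved mutants than in never-starved WT. COR15A encodes a chloroplast protein that protects membranes in the cold. It read 12.79, 12.17 and 12.82 in resupplied mutants, against 11.66, 11.08 and 10.40 in complete mutants. In WT it read 12.92, 12.66 and 12.88 after resupply, against 5.36, 6.04 and 6.46 in complete medium. The resupplied arrays were thus alike in both genotypes, and the complete ones were not. The mutant change was 1.55 ± 0.27 (adjusted p = 0.000115), the WT change 6.87, and the difference -5.32 (adjusted p = 1.45e-08). COR15B and LTI30, a dehydrin, changed by 0.35 and -0.20 in the mutant, neither past the threshold, against 5.17 and 4.19 in WT. COR27 changed by -0.45 (adjusted p = 0.047) in the mutant, and by -0.26 without replicate 3 of the complete mutants (adjusted p = 0.273), against 3.96 in WT. Of 5 cold and dehydration genes 1 was higher and 2 lower in the mutant.

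AT1G07050, which encodes a CCT-motif protein, changed in opposite directions. It read 5.23, 4.66 and 5.10 in resupplied mutants, against 7.42, 7.08 and 7.78 in complete mutants, a fall of 2.43 (SE 0.18). In WT it read 6.88, 6.70 and 6.80, against 3.63, 3.84 and 3.40, a rise of 3.17. The difference was -5.60 (adjusted p = 1.55e-10). The mean of complete WT lay under the dim limit of 4.397 for AT1G07050, AT2G23910, AT3G01830 and COR27, so their WT rises are lower bounds and their order is not determined. AT2G23910, of the reductase family related to lignin synthesis, rose by 0.63 ± 0.18 in the mutant, against 5.98 in WT. It read 9.61, 9.27 and 8.57 in complete mutants and 4.43, 4.35 and 4.22 in complete WT. AT3G01830, a calmodulin-like gene, rose by 1.06 ± 0.26, against 5.53 in WT. Its resupplied mutants, at 7.14, 7.26 and 7.12, also lay below resupplied WT, at 9.74, 9.15 and 9.21. AT5G62360, of the invertase and pectin methylesterase inhibitor family, changed by -0.20, against 4.21.

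The median of the touch and rapid stress genes lay near the replete level in the mutant, while single genes moved either way. Of 7 measured 3 were higher and 1 lower, with a median of 0.34, where the WT median was 3.27. The median signal was 7.77, 7.60 and 7.65 on resupplied mutant arrays, against 8.06, 7.54 and 7.52 on complete ones and 10.16, 10.46 and 10.12 without Pi. In WT it was 10.23, 10.03 and 10.05 after resupply, against 6.65, 6.73 and 6.73 in complete medium, below the complete mutants. STZ, a zinc finger repressor of stress responses, read 10.44, 10.66 and 9.99, against 8.08, 8.47 and 8.37, and rose by 2.06 ± 0.15 (adjusted p = 4.41e-09). PUB22, a ubiquitin ligase, rose by 1.41 ± 0.16 and CML37, a calmodulin-like protein, by 0.90 ± 0.18, a lower bound. WRKY53, a transcription factor of senescence and defence, fell by 0.63 (SE 0.16). The mutant change was below the WT change for all 7, past the threshold.

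Jasmonate-related genes split. Jasmonate is the hormone of wounding and of defence against chewing insects and necrotrophic fungi. JRG21, an oxygenase that inactivates jasmonate, read 10.08, 10.98 and 9.49 in resupplied mutants, against 9.03, 8.41 and 7.67 in complete medium and 5.74, 5.80 and 5.38 without Pi. It rose by 1.81 ± 0.31 (adjusted p = 9.48e-05). AT5G05600, an oxygenase of the same family, rose by 1.11 ± 0.21. The defensin gene PDF1.2 read 5.86, 5.76 and 5.63, against 7.68, 7.83 and 8.15 in complete medium, and fell by 2.14 (SE 0.12, adjusted p = 1.17e-10). PDF1.2b fell by 2.65 (SE 0.32), from a probe set that may also read related defensins. In complete medium its arrays spread over 6.95, 8.05 and 9.16. Of 8 measured genes 4 were higher and 2 lower. Complete WT had means of 4.45 for JRG21 and 6.33 for PDF1.2, below the 8.37 and 7.88 of complete mutants. The WT changes of JRG21 and PDF1.2 were 4.93 and -0.70, and both genotype differences passed (adjusted p = 4.16e-05 and 4.91e-06). Across the list, the mutant change was above the WT change past the threshold for 1 gene and below it for 5.

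The largest positive differences between genotypes included starvation markers and low-oxygen genes. AT5G17340 changed by 5.17 in the mutant and by 2.0 in WT, a difference of 3.17 (adjusted p = 8.67e-07), and AT3G43110 by 3.88 and 1.53, a difference of 2.36. For AT5G17340 the complete arrays of both genotypes were alike, and the resupplied WT arrays read 6.22, 5.34 and 4.99. Both changes of AT5G17340 are lower bounds, since its complete arrays were dim in each genotype. OCT1 differed by 1.90 (adjusted p = 2.82e-06) and AT5G09570 by 1.45 (adjusted p = 0.000111). Of the 8 measured low-Pi marker genes, 4 had a mutant change above the WT change past the threshold and 2 had one below it. AT5G19120, on none of the lists, read 10.44, 10.75 and 10.66 in resupplied mutants, against 10.64, 10.81 and 10.87 in complete mutants. In WT it read 8.63, 8.87 and 8.83 after resupply, against 11.05, 11.57 and 11.47 in complete medium. The mutant groups overlapped and the WT groups did not, and the difference was 2.43 (adjusted p = 1.56e-08).

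The low-oxygen genes reached their positive difference from the other end. AT2G17850 read 4.39, 4.86 and 4.72 in resupplied mutants, against 5.2, 6.47 and 7.39 in complete mutants. In WT it read 4.42, 4.42 and 4.46, against 9.75, 9.33 and 9.24. It fell by 1.70 in the mutant and changed by -5.01 in WT, a difference of 3.31 (adjusted p = 5.07e-05). AT4G33560 fell by 2.01, against a WT change of -4.63. For both genes the resupplied levels were within about 1 unit between genotypes, while the complete mutants lay below complete WT. The means of AT5G10040 and AT3G29970 lay under the dim limit of 4.397 in both mutant groups, so no mutant change is given. AT5G10040 read 3.31, 3.83 and 4.50 in complete mutants, against 7.62, 7.35 and 6.78 in complete WT. Resupplied WT was dim for both genes, so their WT changes of -3.94 and -2.95 are lower bounds in size. Of the 13 low-oxygen genes, 10 had a mutant change above the WT change past the threshold.

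Iron-related genes gave mixed values. BHLH101, a transcription factor of the iron deficiency response, read 3.04, 3.29 and 3.44 in resupplied mutants, against 5.28, 5.08 and 5.12 in complete medium, and fell by 1.91 (SE 0.28, adjusted p = 1.8e-05), a lower bound. Its arrays without Pi read 3.20, 3.26 and 3.10. AT3G13610, the F6'H1 enzyme of coumarin synthesis, rose by 1.24 ± 0.12 (adjusted p = 1.65e-07), with 10.67, 10.62 and 10.54 in resupplied mutants and 9.56, 9.45 and 9.10 in complete medium. PYE fell by 0.54 (SE 0.16, adjusted p = 0.0089), and the call was lost without replicate 1 of the resupplied mutants (-0.43, adjusted p = 0.0547) or replicate 2 of the complete ones (-0.44, adjusted p = 0.0514).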

How the data were processed

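Total RNA of whole seedlings was labelled with biotin and hybridised to 1 Affymetrix array per sample, 18 in all. The authors deposited log2 values made with RMA, per the submitters' processing notes. RMA corrects background, equalises the arrays' distributions and summarises each probe set, so a change in a seedling's total RNA cannot be seen. The log base was inferred from the range, 2.289 to 14.346. The sources used here give no software version or genome build.

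Of 22810 probe sets 64 controls were left out of the tests. A single gene was named for 13513 (13454 through RefSeq), several for 503, and 8730 are not named here. Gene groups take the probe set with the highest mean per gene. Of 324 genes on lists by locus 120 were measured.

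All 18 arrays were fitted with 6 group means in limma 3.58.1 (R 4.3.3) with moderated errors and Benjamini-Hochberg adjustment over 22746 probe sets. The number of arrays limits precision; the median SD was 0.161. Tested on simulated data for the resupplied against complete mutants, the fit recovered 20% of changes of 0.5, 97.5% of 1 and 100% of 2 (log2), of 200 each among 22746 probe sets. False calls numbered 2, 14 and 7. In the real comparison 9533 probe sets passed, which makes the adjusted threshold easier to reach, so these recoveries do not carry over to it.

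Named genes are the 12 largest rises and falls that passed without overlap, the 8 largest genotype differences each way, up to 4 per list, and 6 each way of the WT starvation sets. The comparison, members and lists were chosen with earlier results of these data known. Replicate numbers did not pair the samples (correlations of same-numbered deviations -0.062, 0.075 and -0.089). Alternatives covered arrays in the fit, centring, dim probe sets, weights, variance trend, spike-in arrays, replicate block and leaving out each replicate.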

Additional observations from a re-analysis of the deposited data

Results flagged for a closer look

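The change between resupplied and complete seedlings differed between spx1 spx2 and WT at 6302 probe sets by the interaction term of the limma fit. The values below are the mutant change minus the WT change (log2) for each named gene whose difference passed.

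The positive differences began with 3.31 for AT2G17850, 3.26 for AT5G10040, 3.17 for AT5G17340, 2.62 for AT4G33560, 2.48 for AT3G29970, 2.43 for AT5G19120, 2.36 for AT3G43110 and 2.32 for AT5G66985. They went on with 2.29 for AT4G27450, 2.11 for AT1G33055, 1.96 for ZIP9, 1.92 for TBL36, 1.90 for OCT1, 1.76 for XTH26, 1.71 for AT4G33550 and 1.62 for AT2G37870. Then came 1.57 for AT1G08310, 1.52 for AT5G10970, 1.45 for AT5G09570, 1.33 for AT5G43180, 1.25 for ATG8F, 1.16 for EXPA8, 1.16 for ATG8E and 1.16 for AT5G06630. Below these were 1.08 for AT3G19430, 1.07 for EXLB1, 0.99 for AT3G49960, 0.99 for AT3G13610, 0.98 for cox1, 0.96 for cox2, 0.88 for XTH16 and 0.75 for nad4L. Smaller ones were 0.69 for AT4G15690, 0.68 for AT3G51190, 0.63 for APG8A, 0.50 for GH3.3 and 0.43 for AT1G68670.

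The negative differences began with -5.60 for AT1G07050, -5.35 for AT2G23910, -5.32 for COR15A, -4.82 for COR15B, -4.46 for AT3G01830, -4.42 for AT5G62360, -4.41 for COR27 and -4.40 for LTI30. Next were -3.38 for GSTU25, -3.28 for CML37, -3.20 for WRKY53, -3.18 for STZ, -3.15 for AT5G52760, -3.12 for JRG21, -2.68 for AT5G02940 and -2.52 for AT4G14090. After these came -2.35 for AT1G73600, -2.26 for GSTU22, -2.26 for AT4G27654, -2.25 for AT5G05600, -2.17 for COR47, -2.16 for UF3GT, -2.16 for AT3G12860 and -2.10 for rpl22. Lower in size were -2.08 for AT2G42760, -2.07 for PUB22, -2.01 for rpl14, -1.81 for AT3G05060, -1.78 for AT5MAT, -1.77 for APL3, -1.74 for AT5G47070 and -1.44 for PDF1.2. Further negative differences were -1.43 for UGT73B4, -1.29 for PDF1.2b, -1.23 for AT5G37990, -1.07 for DFR, -0.99 for EXLA1, -0.95 for XTH19, -0.94 for GI and -0.92 for NRPA2. The smallest in size were -0.70 for AT3G17800, -0.68 for AT1G26250, -0.63 for GSTU27 and -0.61 for BZIP60.

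The mean of at least 1 of the 4 groups compared lay under the dim limit of 4.397 for AT5G17340, AT4G27654, CML37, COR27, AT3G01830, AT2G23910 and AT1G07050, so the size of their difference and its rank are not settled. Both mutant means did for AT5G10040, AT3G29970 and AT3G51190, so their values above rest on a mutant change that is not given.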

How the results depend on the processing

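The count of probe sets that differed between resupplied and complete mutants was 9533, and ranged from 8672 to 10651 over the other fits and from 8058 to 9504 when each replicate was left out. Requiring at least 2-fold as well left 2346. Replicate numbers as a block gave 9289. Leaving out each replicate gave 4913 to 6817 for the genotype difference (6302, or 5910 with the replicate block) and 10788 to 12338 for the WT contrast (12324, or 12016 with the block). No named change that passed turned its direction in the settings run, and direction was not followed for changes that did not pass. A call was lost in at least 1 setting for AT5G10970 (0.58, adjusted p = 0.0709, without replicate 2 of the resupplied mutants), PYE, COR27, APL3, ATG8F, APG8A and nad2. APL3 passed narrowly (adjusted p = 0.0496) and was lost with the replicate block (adjusted p = 0.0648). The starch and sugar list had 0 to 2 members called. For the mutant count the 3 arrays with low spike-in signal gave 10651 as a block and 10035 when left out. The genotype difference count was 7849 and 6194 in these settings, and the WT count 12630 and 12038. The causes were not tested. Signals near the dim limit of 4.397 limit what can be measured, and 5 of the largest named changes involve such a group.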

Other observations

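Smaller gene families gave values outside the comparisons above. Of the 5 measured ATG8 genes, whose products coat autophagosomes, 2 were higher and 2 lower in resupplied than in complete mutants. ATG8B read 8.87, 9.14 and 9.46 in resupplied mutants, against 7.74, 7.34 and 7.67 in complete medium and 7.74, 7.68 and 7.64 without Pi, and rose by 1.58 ± 0.18 (adjusted p = 9.79e-07). ATG8E fell by 1.35 (SE 0.20). ATG8F fell by 0.47 (SE 0.13), and without replicate 3 of the complete mutants changed by -0.30 (adjusted p = 0.0629). APG8A changed by 0.36, and by 0.26 (adjusted p = 0.146) without replicate 3 of the resupplied or 0.27 (adjusted p = 0.134) without replicate 2 of the complete mutants.

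Tau glutathione transferases, which conjugate toxic compounds to glutathione, had 3 of 11 members higher and 3 lower. GSTU28 rose by 1.53 ± 0.12, GSTU22 by 1.32 ± 0.19 and GSTU25 by 1.06 ± 0.23. GSTU25 read 10.36, 10.61 and 10.35 in resupplied mutants, against 10.17, 9.29 and 8.69 in complete medium. Trichome birefringence-like genes, many of which acetylate wall polymers, had 4 of 22 higher and 6 lower. Over all named genes 19.1% were higher and 20.6% lower, so these counts do not set the family apart. TBL21 rose by 1.26 ± 0.14, TBL38 by 0.98 ± 0.09 and TBL39 by 0.67 ± 0.10, and TBL36 fell by 0.93 (SE 0.20).

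GH3 enzymes conjugate hormones to amino acids. GH3.3 fell by 0.96 (SE 0.13) and GH3.1 rose by 0.62 ± 0.18, a lower bound since its complete arrays were dim. GI, a clock gene, rose by 0.50 ± 0.12 (adjusted p = 0.00247), with 9.29, 9.41 and 9.25 in resupplied mutants and 9.09, 8.82 and 8.52 in complete medium. BZIP60, a factor of the unfolded protein response, changed by 0.16 (adjusted p = 0.424), although mutants without Pi read 11.15, 10.79 and 10.69, against 9.41, 9.48 and 9.22 in complete medium.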
